A study of Drosophila melanogaster with 13 samples.

Results

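The receptors for the biogenic amines octopamine, dopamine and serotonin were followed here across 3 genotypes of sorted fly optic lobe cells. The 10 genes, Octbeta1R, Octbeta2R, Octbeta3R, Oamb, Dop1R1, Dop1R2, Dop2R, 5-HT1A, 5-HT1B and 5-HT7, were taken by gene symbol from an RNA count table of 17633 genes, with no threshold on their values. RNA came from the optic lobes (the visual centres of the brain) of *Drosophila melanogaster* larvae at the wandering stage (L3). The 3 groups were cells of mutant clones of the allele nerfin-1[159], cells of mutant clones of the allele lola[E76] and WT clones, with 3 libraries each. Nerfin-1 and Lola are zinc finger transcription factors that maintain neuronal identity in this tissue. Each library pooled sorts of different days and held 33000 to 105000 cells. The sources used here do not say how the clones were induced and marked. The count columns are named FRT42D for WT, Lola42D for lola[E76] and Nerfin2A for nerfin-1[159], so only the lola[E76] columns share a tag with WT. Effects of a different chromosome background and of the nerfin-1[159] allele cannot be told apart. A second assay, Targeted DamID, marked DNA contacted by the Lola.N isoform in optic lobe cells expressing ey16F10-GAL4 at L3, with 2 replicates.

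Octopamine is the insect counterpart of noradrenaline, while dopamine and serotonin are shared with vertebrates. All 3 act mainly through G protein coupled receptors of the nerve cell membrane, which raise or lower cyclic AMP or release calcium and so change how excitable a neuron is. In the fly brain amines come from a small number of widely branching neurons, and a much larger number of neurons carry the receptors. In bulk RNA, fewer cells that carry a receptor and less receptor RNA per cell cannot be told apart.

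The libraries held 3465601 to 5200223 counts, and all 9 were used. A count of 3 in a library equalled 0.568 to 0.849 CPM, the unit of counts scaled to a common library size by TMM. QuantSeq reads 1 tag near the 3′ end of a transcript, so CPM values of different genes were compared without a length correction. The nerfin-1 gene had 65, 27 and 8 counts in nerfin-1[159] libraries, against 1157, 1263 and 1452 in WT libraries, in the direction of its label. It was also lower in lola[E76] than in WT (log2 difference -1.03 ± 0.28, edgeR adjusted p = 0.0342), a call kept in 8 of 17 alternative settings. Tags of lola do not check the allele lola[E76], since its total did not pass the test (log2 difference 0.17 ± 0.10, edgeR adjusted p = 0.414) and a 3′ tag need not see the lesion. In nerfin-1[159] the lola total was higher than in WT (0.54 ± 0.10, edgeR adjusted p = 0.00124), in 17 of 17 alternatives. Neuron markers (elav, nSyb, Syt1, brp, fne, nrv3) had counts in every library. Called lower than in WT were 4 of 6 in nerfin-1[159] (brp, fne, Syt1, nSyb) and 2 of 6 in lola[E76] (nSyb, nrv3). Of all tested genes 6.27% and 2.91% were called lower in these comparisons. The marker elav was called in neither. Neuron markers summed to 4961 to 5949 CPM in nerfin-1[159], 6450 to 7000 CPM in lola[E76] and 7604 to 9172 CPM in WT libraries. Summed markers of neuroblasts, the neural stem cells (dpn, wor, ase, mira, klu), stood at 915 to 1055 CPM in nerfin-1[159], 355 to 414 CPM in lola[E76] and 77.0 to 253 CPM in WT libraries. Called higher than in WT were 5 of 5 in nerfin-1[159] and 3 of 5 in lola[E76], against 5.66% and 3.58% of tested genes. In the neuroblast sum WT replicate 1 stood apart at 77.0 CPM, against 245.5 and 253 CPM in the other WT libraries.

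All 10 receptors passed the filter on low counts, but they were scarce. Total counts over the 9 libraries were 72 for 5-HT7, 85 for Oamb, 159 for Octbeta2R and 204 for Dop1R2, with 381 for Dop2R, 382 for 5-HT1B, 481 for Dop1R1, 571 for Octbeta3R, 858 for Octbeta1R and 1477 for 5-HT1A. Oamb and 5-HT7 were at 0 in 2 libraries each, and Dop1R2 and Dop2R in 1 each. The half-width of the 95% interval of a log2 difference was 2.59 to 2.76 for Oamb, 2.69 to 2.95 for 5-HT7, 1.90 to 2.04 for Octbeta2R, 1.79 to 1.95 for Dop1R2 and 1.32 to 1.49 for Dop2R. For these 5 genes the intervals are wider than a 2-fold change, which is 1 on this scale, and Oamb, 5-HT7, Octbeta2R and Dop1R2 had the fewest counts. Dop2R had about as many counts as 5-HT1B, with wider intervals. Dop1R1 (0.996 to 1.08) and 5-HT1B (1.01 to 1.06) lay at that limit. Octbeta3R (0.800 to 0.958), 5-HT1A (0.735 to 0.751) and Octbeta1R (0.654 to 0.687) were measured more finely.

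In nerfin-1[159] clones Octbeta3R and Dop1R1 fell relative to WT. These were 2 of the 10 receptors at an adjusted p of 0.05, against 11.9% of all 7451 tested genes called and 6.27% called lower. No receptor was called higher in edgeR (0 of 10), against 5.66% of tested genes. DESeq2 and limma voom also called 0 higher, and 0 passed in this direction at an unadjusted p of 0.05. In the lower direction 4 passed at an unadjusted p of 0.05 in edgeR, and 5 each in DESeq2 and limma voom. Shares of all tested genes are edgeR calls at the adjusted p, and no share at an unadjusted p was taken. The fitted log2 difference was below 0 for all 10 receptors and for 49.8% of tested genes, and its median was -1.70 over the receptors and 0.00 over tested genes. Oamb and 5-HT7 had 0 to 6 counts per nerfin-1[159] library and passed the filter only with lola[E76] and WT libraries both in the fit. They could hardly come out higher in nerfin-1[159], so their signs and their part in the median carry no weight. A low median was not particular to these receptors. In the same comparison it was -2.12 for 9 tested neuropeptide receptors, -1.34 for 3 other amine receptors, -1.37 for 5 transmitter markers and -0.90 for 6 neuron markers. It was -0.18 for 22 genes of G protein and cyclic AMP signalling and 2.31 for 5 neuroblast markers. For 5 receptors (Octbeta1R, Octbeta3R, Dop1R1, Dop1R2, 5-HT1B) every nerfin-1[159] library lay below every WT library, as for 15.6% of tested genes, and for none every library above (14.9% of tested genes).

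In lola[E76] clones Octbeta1R rose relative to WT and no receptor passed the test in the other direction. This was 1 of 10 receptors, against 6.5% of tested genes called and 3.58% called higher. In the lower direction 0 of 10 were called in edgeR, against 2.91% of tested genes, and 0 in DESeq2 and limma voom. At an unadjusted p of 0.05, 1 was lower in each of the 3 tools. The difference was below 0 for 4 receptors and for 50.1% of tested genes, and its median was 0.11 over the receptors and 0.00 over tested genes. Libraries lay wholly apart with lola[E76] higher for 2 receptors (Octbeta1R and Dop2R; 12.7% of tested genes) and with lola[E76] lower for 1 (Octbeta2R; 12.1%).

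Between the mutants, Octbeta3R, Octbeta1R, Dop2R and Dop1R1 were lower in nerfin-1[159] than in lola[E76] clones. These were 4 of 10 receptors, against 15.5% of tested genes called and 8.58% called lower. None was called higher by edgeR (0 of 10), against 6.94% of tested genes. Nor was any higher by DESeq2 or limma voom, or at an unadjusted p of 0.05. At an unadjusted p of 0.05, 6 were lower in each of these tools. Differences were below 0 for 9 receptors, with Octbeta2R as the exception, and for 49.5% of tested genes. The signs of Oamb and 5-HT7 carry no weight here either, for the reason given above. The libraries of 4 receptors (Octbeta1R, Octbeta3R, Dop2R, 5-HT1B) lay wholly lower in nerfin-1[159], as for 15.4% of tested genes. Both mutant comparisons use the same 3 WT libraries.

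**Figure D1:**
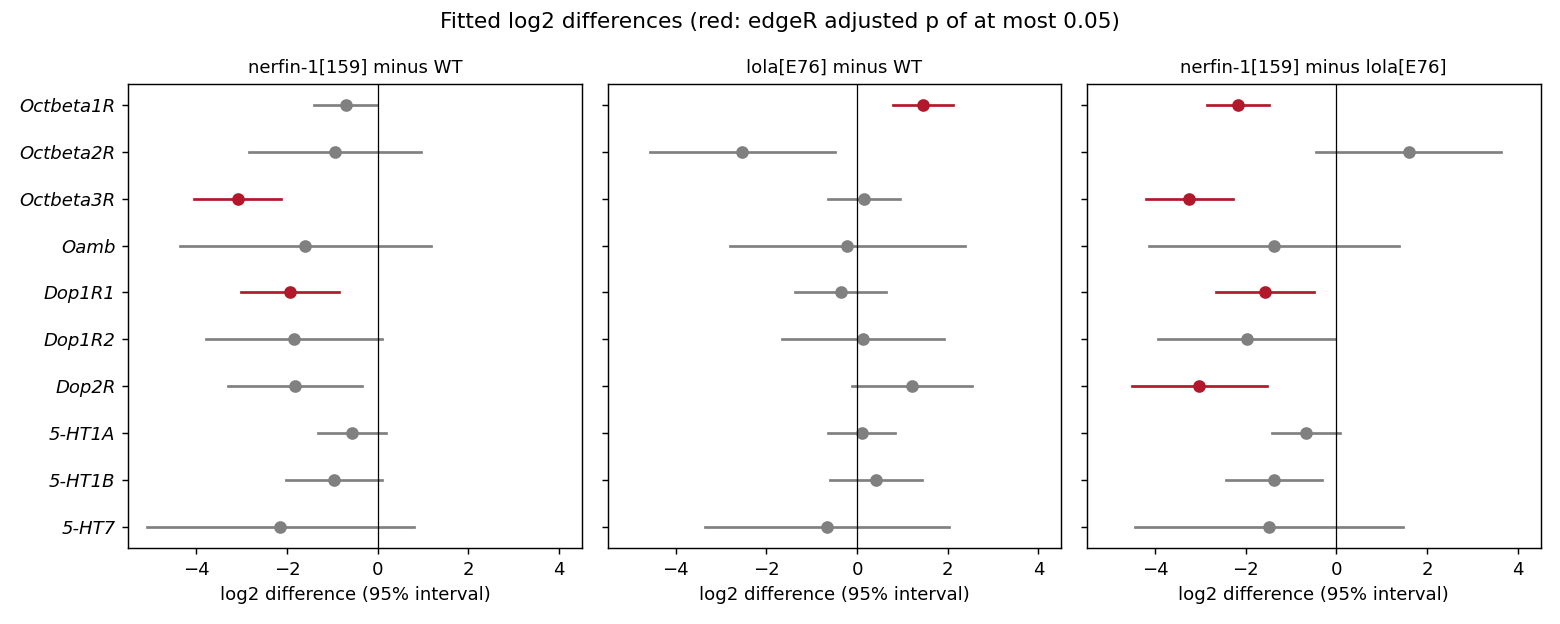
Fitted log2 difference (horizontal axis) of each receptor with its 95% interval, in the comparisons nerfin-1[159] minus WT, lola[E76] minus WT and nerfin-1[159] minus lola[E76], with red for an edgeR adjusted p of at most 0.05. All 10 receptors lie left of 0 in the first panel, and the intervals of Oamb and 5-HT7 are the widest in all panels.

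Octbeta3R (FBgn0250910, chromosome arm 3R), a receptor of the beta-adrenergic-like class that raises cyclic AMP and is known for its role in the prothoracic gland at metamorphosis, showed the lowest adjusted p of the 10 receptors against WT. Its levels were 1.42, 3.01 and 2.13 CPM in nerfin-1[159], 12.1, 29.5 and 21.7 CPM in lola[E76] and 19.2, 15.4 and 22.2 CPM in WT libraries. All nerfin-1[159] values lay below all others, and lola[E76] and WT overlapped. Octbeta3R was 8.49-fold lower in nerfin-1[159] than in WT (log2 difference -3.09 ± 0.46 SE, 95% interval -4.04 to -2.13, edgeR quasi-likelihood adjusted p = 0.000117). Relative to lola[E76] it was 9.48-fold lower (-3.24 ± 0.46, adjusted p = 5.56e-05). The difference of lola[E76] from WT was 0.16 ± 0.38 with an interval of -0.64 to 0.96 (adjusted p = 0.890), which leaves out a 2-fold change in either direction. Its 2 calls held under all 17 alternative settings, with the difference from WT between -3.40 and -2.86.

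Octbeta1R (FBgn0038980, arm 3R), a related receptor known as a brake on synapse growth at the larval neuromuscular junction, moved in the other mutant. Its levels were 6.23, 10.3 and 11.2 CPM in nerfin-1[159], 41.4, 42.01 and 41.3 CPM in lola[E76] and 21.1, 12.1 and 12.5 CPM in WT libraries. The lola[E76] libraries lay highest and close together, and the nerfin-1[159] libraries lay below those of WT by a small gap. Octbeta1R was 2.75-fold higher in lola[E76] than in WT (log2 difference 1.46 ± 0.31, interval 0.80 to 2.11, edgeR adjusted p = 0.00604). The difference of nerfin-1[159] from WT was -0.71 ± 0.33 and missed the threshold (adjusted p = 0.204). Between nerfin-1[159] and lola[E76] it was -2.16 ± 0.33, or 4.48-fold lower in nerfin-1[159] (edgeR adjusted p = 0.000114). Both calls held under all 17 alternatives.

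Octbeta2R (FBgn0038063, arm 3R), known as the promoter of synapse growth at the same junction, and Oamb (FBgn0024944, arm 3R), the alpha-adrenergic-like octopamine receptor of mushroom bodies and oviduct, were near the limit of detection. Octbeta2R had 2, 12 and 28 counts in nerfin-1[159], 2, 3 and 11 in lola[E76] and 20, 21 and 60 in WT libraries. The lola[E76] counts lay below those of WT, while nerfin-1[159] overlapped both. The log2 difference of lola[E76] from WT was -2.53 ± 0.97, with an interval of -4.57 to -0.49 and an edgeR adjusted p of 0.148. That of nerfin-1[159] from WT was -0.93 ± 0.90 (adjusted p = 0.637). Octbeta2R was thus the receptor with the largest fitted departure of lola[E76] from WT, in the opposite direction to Octbeta1R, but without a call.

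Oamb had 5, 6 and 0 counts in nerfin-1[159], 0, 17 and 18 in lola[E76] and 17, 15 and 7 in WT libraries. The groups overlapped, and 3 counts are the floor below which a library says little. Its log2 differences from WT were -1.59 ± 1.32 in nerfin-1[159] (edgeR adjusted p = 0.559) and -0.22 ± 1.24 in lola[E76] (adjusted p = 0.957).

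**Figure D2:**
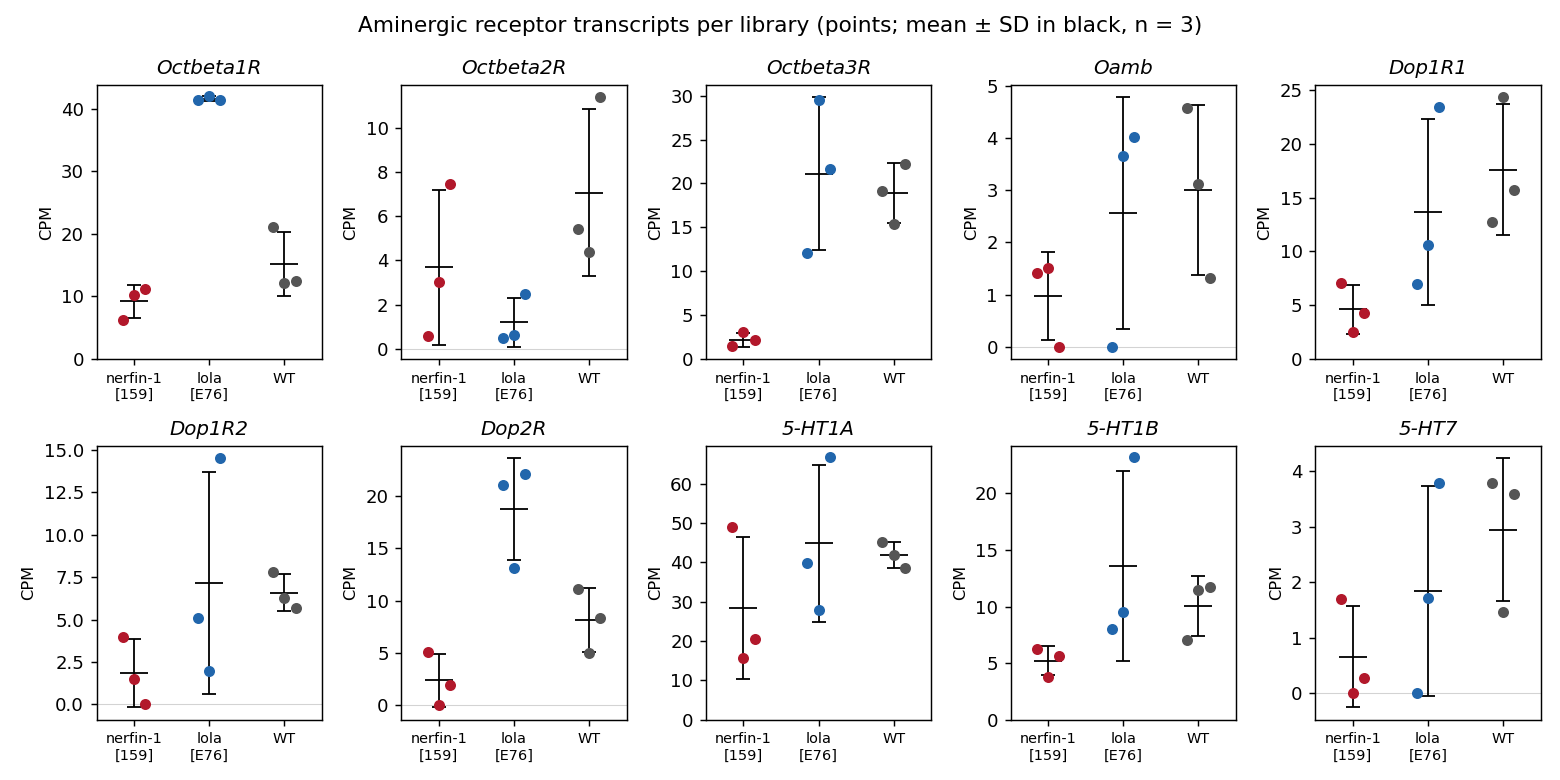
CPM of each receptor in each library (points), with the mean and SD of the 3 libraries of a genotype in black; the vertical axes differ between panels. Octbeta3R is low in the 3 nerfin-1[159] libraries only (1.42 to 3.01 CPM), and Octbeta1R is high and tight in lola[E76] (41.3 to 42.01 CPM).

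Among the dopamine receptors, Dop1R1 (FBgn0011582, arm 3R), the D1-like receptor that mushroom body neurons need for aversive learning, fell in nerfin-1[159]. Its levels were 7.08, 2.51 and 4.26 CPM in nerfin-1[159], 7.02, 10.6 and 23.5 CPM in lola[E76] and 12.7, 24.4 and 15.7 CPM in WT libraries. The nerfin-1[159] libraries lay below WT, whereas lola[E76] spread over both ranges and met nerfin-1[159] at 7.02 against 7.08 CPM. Dop1R1 was 3.82-fold lower in nerfin-1[159] than in WT (log2 difference -1.94 ± 0.51, interval -3.01 to -0.86, edgeR adjusted p = 0.0164). The call was lost without WT replicate 2 (adjusted p = 0.107), nerfin-1[159] replicate 2 (0.0856) or nerfin-1[159] replicate 3 (0.0663), with the difference at -1.63, -1.64 and -1.89. Relative to lola[E76] the difference was -1.57 ± 0.51 (edgeR adjusted p = 0.0442), a call kept in 9 of 17 alternatives. With a replicate block its adjusted p was 0.0950, and without lola[E76] replicate 3 the difference shrank to -0.94 (adjusted p = 0.282).

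Dop2R (FBgn0053517, X chromosome), the D2-like receptor that lowers cyclic AMP and also acts as an autoreceptor of dopamine neurons, differed between the mutants. Its levels were 5.10, 0 and 1.87 CPM in nerfin-1[159], 21.1, 13.1 and 22.1 CPM in lola[E76] and 11.1, 5.00 and 8.34 CPM in WT libraries. The lola[E76] libraries were the highest and did not overlap with the others, while nerfin-1[159] reached the lowest WT library. Dop2R was 8.15-fold lower in nerfin-1[159] than in lola[E76] (log2 difference -3.03 ± 0.71, interval -4.51 to -1.54, edgeR adjusted p = 0.00541), in all 17 alternatives. Neither difference from WT passed, at -1.82 ± 0.71 in nerfin-1[159] (adjusted p = 0.115) and 1.21 ± 0.63 in lola[E76] (adjusted p = 0.320). The nerfin-1[159] difference from WT passed without a filter on low counts (adjusted p = 0.0226) and without nerfin-1[159] replicate 1 (-3.11, adjusted p = 0.0167).

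Dop1R2 (FBgn0266137, arm 3R), a further D1-like receptor known from forgetting in the mushroom bodies, had 14, 6 and 0 counts in nerfin-1[159], 21, 9 and 65 in lola[E76] and 29, 30 and 30 in WT libraries. The WT libraries were even, and the lola[E76] mean rested on replicate 3. Its log2 differences from WT were -1.85 ± 0.93 in nerfin-1[159] (edgeR adjusted p = 0.256) and 0.13 ± 0.85 in lola[E76] (adjusted p = 0.965).

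The serotonin receptor 5-HT1A (FBgn0004168, arm 2R), which couples to inhibitory G proteins and is known for its role in fly sleep, was the most abundant of the 10. Its levels were 49.0, 15.8 and 20.5 CPM in nerfin-1[159], 39.9, 27.8 and 66.8 CPM in lola[E76] and 45.1, 41.9 and 38.5 CPM in WT libraries. The WT libraries agreed closely, while nerfin-1[159] replicate 1 and lola[E76] replicate 3 stood above the other libraries of their genotypes, and all groups overlapped. Differences from WT were -0.56 ± 0.36 in nerfin-1[159] (interval -1.31 to 0.19, edgeR adjusted p = 0.405) and 0.10 ± 0.35 in lola[E76] (interval -0.63 to 0.84, adjusted p = 0.929). The second interval leaves out a 2-fold change. Without nerfin-1[159] replicate 1 the difference of nerfin-1[159] from WT was -1.20 and passed (adjusted p = 0.0268), and that from lola[E76] was -1.30 (adjusted p = 0.0132).

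5-HT1B (FBgn0263116, arm 2R), a second inhibitory serotonin receptor, measured 6.23, 3.76 and 5.60 CPM in nerfin-1[159], 7.99, 9.48 and 23.2 CPM in lola[E76] and 7.02, 11.5 and 11.7 CPM in WT libraries. The nerfin-1[159] libraries lay below both other genotypes, and lola[E76] replicate 3 stood apart at the top. No difference passed in edgeR, at -0.96 ± 0.50 for nerfin-1[159] minus WT (adjusted p = 0.285), 0.42 ± 0.48 for lola[E76] minus WT (0.723) and -1.38 ± 0.50 for nerfin-1[159] minus lola[E76] (0.0733). The last passed with DESeq2 (adjusted p = 0.0498) and without lola[E76] replicate 1 (-1.66, adjusted p = 0.0289).

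5-HT7 (FBgn0004573, arm 3R), a serotonin receptor that raises cyclic AMP, had 6, 0 and 1 counts in nerfin-1[159], 0, 8 and 17 in lola[E76] and 14, 7 and 19 in WT libraries. These are too few to order the genotypes, whose CPM ranges overlapped. Its log2 differences from WT were -2.15 ± 1.41 in nerfin-1[159] and -0.66 ± 1.28 in lola[E76], and its edgeR adjusted p was 0.419 for nerfin-1[159] minus WT and 0.860 for lola[E76] minus WT.

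5-HT1A had the highest mean in each genotype, and few neighbours in the order of levels were resolved. In nerfin-1[159] libraries 5-HT1A led with 28.4 ± 18.0 CPM (SD, n = 3), above Octbeta1R with 9.23 ± 2.64 CPM, and only this step had libraries that did not overlap. In lola[E76] libraries 5-HT1A (44.8 ± 19.96 CPM) and Octbeta1R (41.6 ± 0.382 CPM) overlapped, and Octbeta1R stood clear of Octbeta3R (21.1 ± 8.72 CPM). In WT libraries 5-HT1A (41.8 ± 3.32 CPM) stood clear of Octbeta3R (18.9 ± 3.39 CPM), Octbeta1R (15.2 ± 5.07 CPM) of 5-HT1B (10.1 ± 2.65 CPM), and Dop1R2 (6.59 ± 1.11 CPM) of Oamb (3.01 ± 1.64 CPM). The lowest mean was that of 5-HT7 in nerfin-1[159] (0.655 ± 0.914 CPM) and WT (2.95 ± 1.29 CPM) and that of Octbeta2R in lola[E76] (1.20 ± 1.10 CPM). Octbeta3R ranked behind 6 receptors in nerfin-1[159], behind 2 in lola[E76] and behind 1 in WT.

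The make-up of the summed receptor counts shifted with genotype, as a description without a test. 5-HT1A took 45.3 ± 12.1% of receptor counts in nerfin-1[159], 26.4 ± 5.75% in lola[E76] and 31.8 ± 2.15% in WT libraries. Octbeta3R took 4.33 ± 2.79% in nerfin-1[159], 13.2 ± 6.75% in lola[E76] and 14.4 ± 2.35% in WT libraries. Octbeta1R took 17.8 ± 9.09% in nerfin-1[159], 26.4 ± 6.81% in lola[E76] and 11.5 ± 3.29% in WT libraries. Thus the Octbeta1R share was above the WT range in every lola[E76] library, where its lowest value was 18.5%, against a highest WT value of 15.3%.

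**Figure D3:**
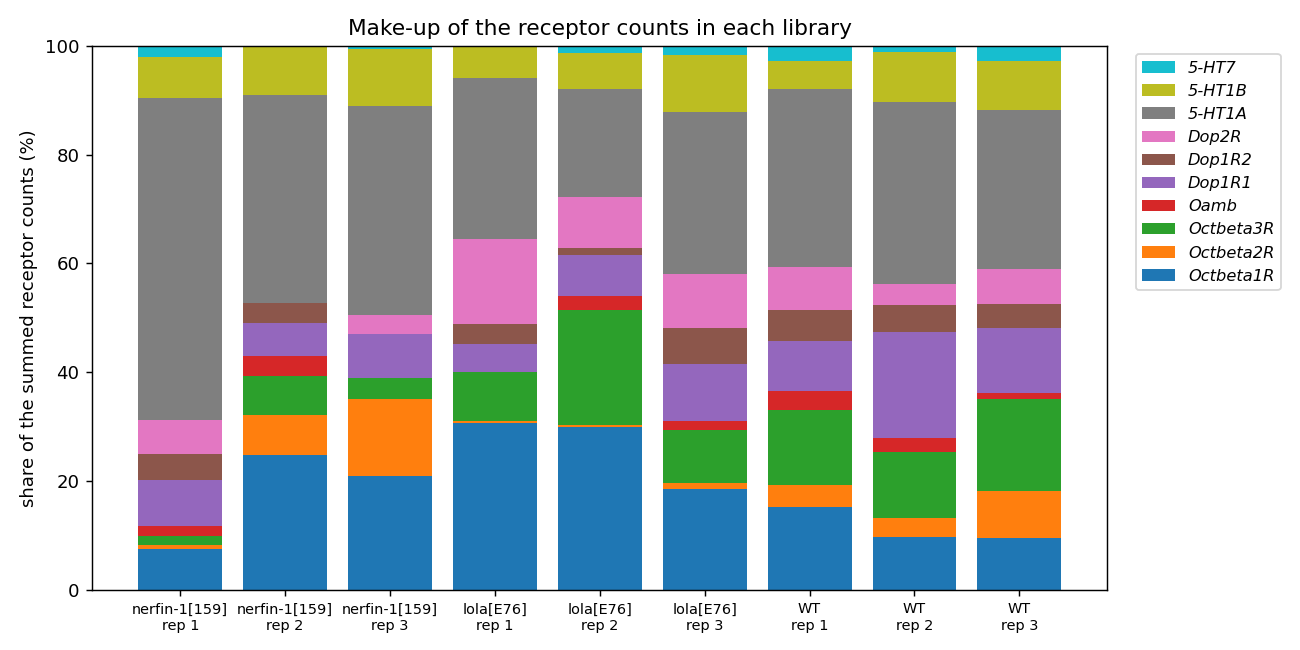
Share of each receptor (percent, stacked) in the summed counts of the 10 receptors, 1 bar per library. The Octbeta3R band is thin in nerfin-1[159] (1.71% to 7.27%) and the Octbeta1R band is wide in lola[E76] (18.5% to 30.6%).

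The summed level of the 10 receptors was 82.7, 41.4 and 53.3 CPM in nerfin-1[159], 135, 140.5 and 223.4 CPM in lola[E76] and 137.8, 125.4 and 130.9 CPM in WT libraries. The nerfin-1[159] mean was 45.0% of the WT mean. Over the same libraries the summed neuron markers of nerfin-1[159] stood at 66.3% of WT, the summed transmitter markers (VAChT, ChAT, VGlut, Gad1, VGAT) at 32.0%, and the neuroblast markers at 5.02-fold. In lola[E76] libraries receptors stood at 1.27-fold of WT, neuron markers at 81.5%, transmitter markers at 63.0% and neuroblast markers at 2.02-fold. The 1.27-fold rests on lola[E76] replicate 3 (223.4 CPM), since replicates 1 and 2 (135 and 140.5 CPM) lay at or near the WT values. That same library stood apart at the top of its genotype for 5-HT1A, 5-HT1B, Dop1R1 and Dop1R2. Sums weigh abundant genes most, and single markers departed from them. In lola[E76] nSyb was at 13.3, 17.5 and 59.6 CPM, against 452, 399 and 394 CPM in WT libraries. VGlut was at 47.7, 50.4 and 50.7 CPM, above the 31.3, 46.7 and 32.4 CPM of WT. At 144, 117 and 129 CPM klu overlapped WT (28.6, 132 and 117 CPM). Glia markers (repo, moody, wrapper, alrm, Gs2) summed to 15.3 to 44.6 CPM in nerfin-1[159], 44.9 to 55.9 CPM in lola[E76] and 27.0 to 34.1 CPM in WT libraries, with the defining gene repo at 0, 1 and 31 counts in lola[E76]. The higher lola[E76] sum came from wrapper (25.4, 19.2 and 8.71 CPM, against 0.540, 0.833 and 1.89 CPM in WT) and moody. Of 4 tested glia markers only wrapper was called higher there (edgeR adjusted p = 0.00442), against 3.58% of tested genes. Gs2 and alrm overlapped WT. Markers of haemocytes and fat body (Hml, Col4a1, vkg, NimC1) summed to 194 to 268 CPM in nerfin-1[159], 23.5 to 54.0 CPM in lola[E76] and 3.78 to 12.3 CPM in WT libraries. In nerfin-1[159] nearly all of that was Col4a1, a collagen (188, 254 and 266 CPM). Col4a1 stood at 39.4, 20.3 and 28.6 CPM in lola[E76] and 1.62, 6.46 and 7.20 CPM in WT libraries. The gene vkg had 13, 12 and 7 counts in nerfin-1[159], 48, 0 and 6 in lola[E76] and 7, 28 and 12 in WT libraries. NimC1 was at 0 in all 9 libraries and Hml had at most 15 counts. Marker sums do not tell a change in the number of cells from a change in RNA per cell. The part of these marker differences in the receptor differences was not tested.

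Receptors for amines outside the 10 genes gave further differences. Of 7 listed genes, 3 were tested, while Oct-TyrR, TyrR, TyrRII and 5-HT2B had 13 to 49 counts in all and were not. In nerfin-1[159] against WT 2 were lower and 0 higher (0 higher also by DESeq2 and limma voom and at an unadjusted p of 0.05 in edgeR). Of all tested genes 6.27% were called lower and 5.66% higher there. Octalpha2R, an alpha2-adrenergic-like octopamine receptor, measured 13.9, 9.03 and 8.26 CPM in nerfin-1[159], 40.7, 35.8 and 44.9 CPM in lola[E76] and 19.7, 29.4 and 29.6 CPM in WT libraries. The 3 genotypes did not overlap. Octalpha2R was lower in nerfin-1[159] than in WT (log2 difference -1.34 ± 0.30, edgeR adjusted p = 0.00490) and than in lola[E76] (-1.96 ± 0.30, adjusted p = 0.000125), and its lola[E76] difference from WT was 0.62 ± 0.28 (adjusted p = 0.233). DopEcR, which binds both dopamine and ecdysteroids, was also lower in nerfin-1[159] than in WT (-1.49 ± 0.39, edgeR adjusted p = 0.0156), but not without WT replicate 2 (adjusted p = 0.0662).

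5-HT2A, a serotonin receptor that releases calcium, rose in lola[E76] clones. It had 9, 6 and 7 counts in nerfin-1[159], 91, 57 and 55 in lola[E76] and 8, 4 and 17 in WT libraries. Every lola[E76] library lay well above all others. The log2 difference of lola[E76] from WT was 2.88 ± 0.63, a 7.37-fold higher level (edgeR adjusted p = 0.00735), and the call was lost only without lola[E76] replicate 1 (adjusted p = 0.0526). Relative to lola[E76], 5-HT2A was 7.79-fold lower in nerfin-1[159] (adjusted p = 0.00307).

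Genes that make, load and clear amines were mostly below the reach of the libraries. Of 12 listed genes 5 were tested (Tbh, Pu, Vmat, DAT and AANAT1), and 7 had 0 to 48 counts in all. Among those 7, ple, which makes dopamine's precursor, had 15 counts, Tdc2, which makes tyramine for octopamine, had 28, Trhn, which starts serotonin synthesis, had 45, and SerT, the serotonin transporter, had 19. In nerfin-1[159] 1 of the 5 was higher and 0 lower than in WT, and in lola[E76] 0 were higher and 1 lower, both times Vmat, which packs amines into synaptic vesicles. Of all tested genes 5.66% were higher and 6.27% lower in nerfin-1[159], and 3.58% higher and 2.91% lower in lola[E76]. In the directions with a count of 0, no gene passed by DESeq2 or limma voom either, nor at an unadjusted p of 0.05 (0 of 5). Vmat had 258, 166 and 181 counts in nerfin-1[159], 14, 9 and 33 in lola[E76] and 45, 65 and 92 in WT libraries. The 3 genotypes lay wholly apart, with nerfin-1[159] at the top and lola[E76] at the bottom. The log2 difference from WT was 1.91 ± 0.36 in nerfin-1[159] (edgeR adjusted p = 0.00123) and -1.76 ± 0.40 in lola[E76] (adjusted p = 0.00987), and nerfin-1[159] minus lola[E76] was 3.67 ± 0.41 (adjusted p = 3.41e-06). The lola[E76] call missed the threshold with limma voom and with 2 genotypes alone in the fit (adjusted p of up to 0.0671).

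All 22 listed genes of G protein and cyclic AMP signalling were tested, with median log2 differences of -0.18 in nerfin-1[159] and -0.22 in lola[E76] from WT, beside 0.00 over tested genes. In nerfin-1[159] 6 were lower and 2 higher than in WT, against 6.27% and 5.66% of tested genes. Galphao, an abundant neuronal G protein subunit, was lower (-0.82 ± 0.12, edgeR adjusted p = 0.000111), as was dnc, the phosphodiesterase that breaks down cyclic AMP (-1.001 ± 0.16, adjusted p = 0.000234). Galphai, an inhibitory subunit that also takes part in the asymmetric division of neuroblasts, was higher (1.09 ± 0.14, adjusted p = 2.89e-05), and so was Ggamma1 (0.46 ± 0.11, adjusted p = 0.0115). Between the mutants 5 were lower and 2 higher in nerfin-1[159] than in lola[E76], against 8.58% and 6.94% of tested genes. Those with the smallest edgeR adjusted p were Galphai (0.92 ± 0.14, adjusted p = 0.000135), Gprk2 (0.77 ± 0.12, 0.000149) and dnc (-0.9996 ± 0.16, 0.000180). In lola[E76] 2 were lower than in WT and 0 higher by edgeR, against 2.91% and 3.58% of tested genes. In the higher direction 1 passed at an unadjusted p of 0.05, 1 by DESeq2 and 0 by limma voom. The 2 lower genes were Gprk2, a kinase that switches off active receptors (-0.54 ± 0.12, edgeR adjusted p = 0.00733), and Pka-C1, the main catalytic subunit of protein kinase A (-0.42 ± 0.11, adjusted p = 0.0291). The Pka-C1 call was lost in 6 of 17 alternatives, among them the omission of any WT library.

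**Figure D4:**
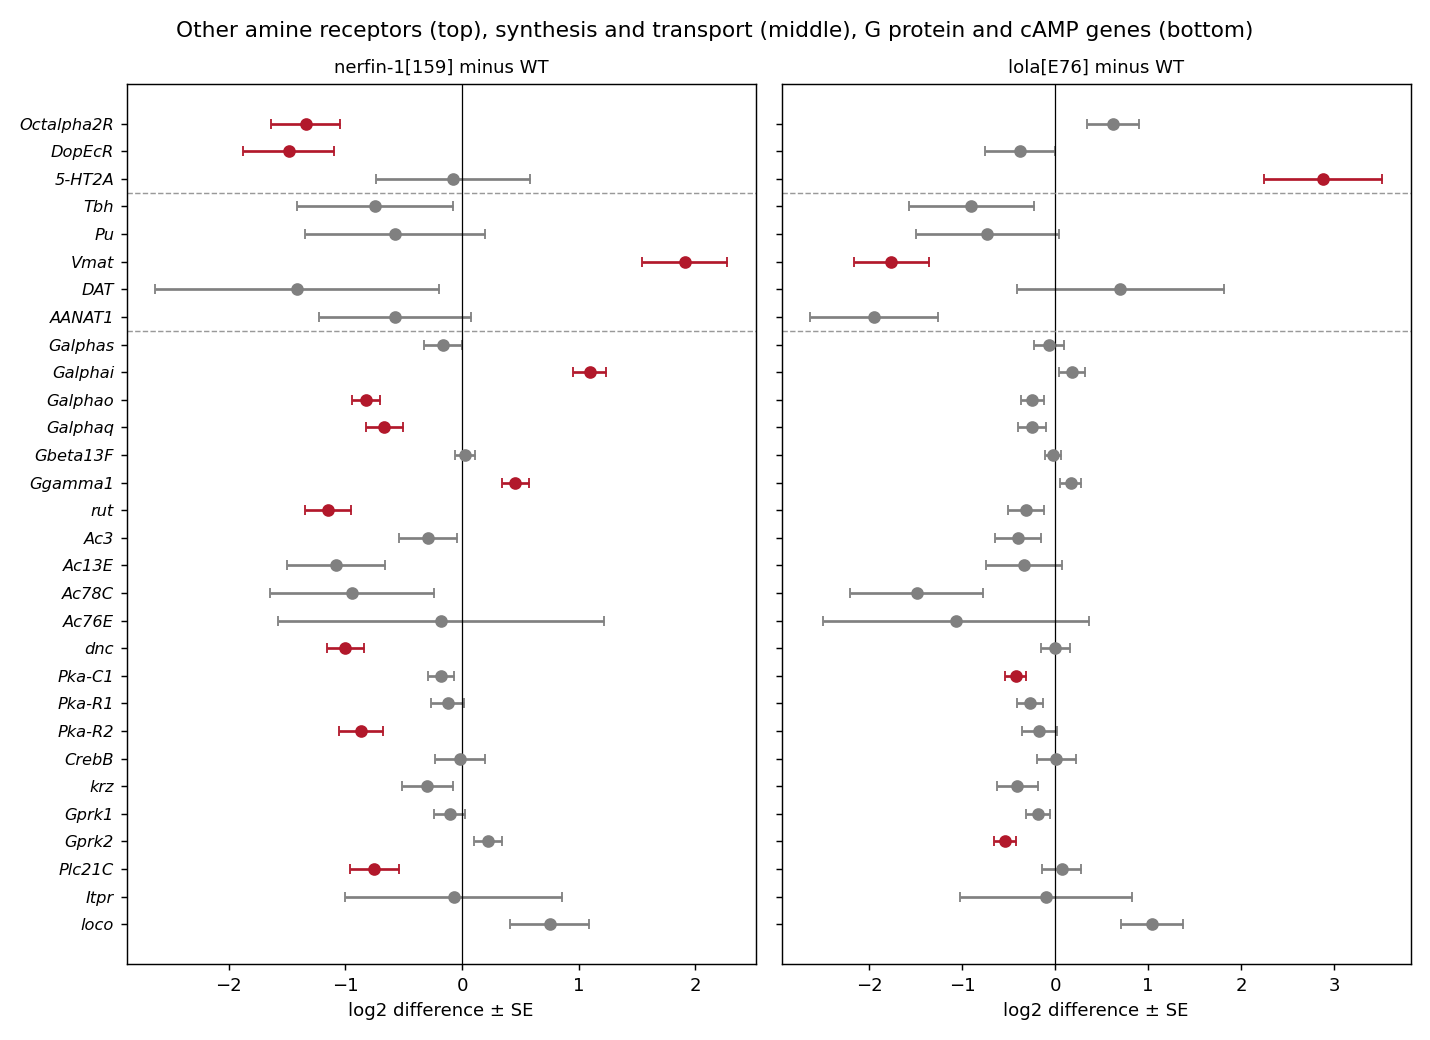
Fitted log2 difference ± SE of the other tested amine receptors (top), genes of amine synthesis and transport (middle) and genes of G protein and cyclic AMP signalling (bottom), for nerfin-1[159] minus WT (left) and lola[E76] minus WT (right), with red for an edgeR adjusted p of at most 0.05. Vmat lies at 1.91 in the left panel and at -1.76 in the right one, and 5-HT2A lies at 2.88 in the right one.

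Receptors of other messengers were set beside the amine receptors. Shares of all tested genes called lower and higher were 6.27% and 5.66% in nerfin-1[159] against WT. They were 2.91% and 3.58% in lola[E76] against WT, and 8.58% and 6.94% in nerfin-1[159] against lola[E76]. Of 8 metabotropic receptors for acetylcholine, GABA, glutamate and adenosine, 5 were tested. In nerfin-1[159] 2 were lower and 0 higher than in WT, GABA-B-R1 (-1.23 ± 0.30, edgeR adjusted p = 0.00877; 0.0576 without nerfin-1[159] replicate 3) and GABA-B-R2 (-0.76 ± 0.24, adjusted p = 0.0402), which form the GABA-B receptor together. The GABA-B-R2 call was kept in 11 of 17 alternatives. In lola[E76] 1 was lower and 0 higher, GABA-B-R1 (-2.76 ± 0.32, edgeR adjusted p = 1.67e-05). None of the 5 was higher in either mutant by DESeq2 or limma voom, nor at an unadjusted p of 0.05 in edgeR (0 of 5). Between the mutants, GABA-B-R1 (1.53 ± 0.32, edgeR adjusted p = 0.00211) and mGluR, the metabotropic glutamate receptor (2.61 ± 0.74, adjusted p = 0.0198), were higher in nerfin-1[159] than in lola[E76], and GABA-B-R2 was lower (-0.94 ± 0.24, adjusted p = 0.00856). The mGluR call was lost without nerfin-1[159] replicate 2 (adjusted p = 0.0679). Of 24 neuropeptide receptors 9 were tested. In nerfin-1[159] 2 were lower than in WT by edgeR (4 by DESeq2, 1 by limma voom) and 0 higher by any of these, with 1 higher at an unadjusted p of 0.05. The 2 were sNPF-R, the receptor of short neuropeptide F (-2.12 ± 0.42, edgeR adjusted p = 0.00194), and CCAP-R, the receptor of crustacean cardioactive peptide. CCAP-R had 0 counts in nerfin-1[159], 180 in lola[E76] and 59 in WT libraries together, and its call was lost with limma voom (adjusted p = 0.153). Between the mutants 5 were lower in nerfin-1[159] than in lola[E76], with the smallest edgeR adjusted p for CCAP-R (0.000491), sNPF-R (-2.20 ± 0.42, 0.00110) and rk, the receptor of bursicon (0.00540), which had 1 count in nerfin-1[159] and 84 in lola[E76] libraries together. CCAP-R and rk passed the filter on low counts only through the genotypes where they are higher. They could hardly come out higher in nerfin-1[159], which limits these counts of lower genes. In lola[E76] 0 of 9 passed in edgeR, DESeq2 or limma voom in either direction, with 1 higher and 0 lower at an unadjusted p of 0.05 in edgeR.

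Genes with the closest pattern over the 9 libraries were listed for the 4 receptors with a call, by Pearson's r of log2 CPM with no test. For Octbeta1R these were CG8547 (r = 0.98), CG18628 (0.96) and Strn-Mlck (0.96), a titin-related muscle protein kinase. Strn-Mlck was, like Octbeta1R, higher in lola[E76] than in WT (3.25 ± 0.14, edgeR adjusted p = 1.98e-11). For Octbeta3R they were Prosalpha1 (0.97) and Prosalpha1R (0.97), near-identical copies of a proteasome subunit gene whose reads cannot be assigned with certainty, and CG43737 (0.96). Those for Dop1R1 were CG16779 (0.98), CG2931 (0.94) and sn (0.94), the actin bundler fascin, and those for Dop2R were Plekhm1 (0.98), RpS25 (0.97), a ribosomal protein, and GABA-B-R2 (0.97). Each r rests on 9 libraries in 3 genotypes, and these genes were chosen as the 3 with the highest r of all tested genes, so a high value is fixed by the choice. Among the receptors r was highest between Dop1R1 and 5-HT1B (0.89) and lowest between Octbeta1R and Octbeta2R (-0.35).

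The receptors were also read beside the tested genes next to them in chromosome order, since linked genes can differ between strains. Genes below the filter on low counts were skipped in this order. Of all tested genes 11.9% were called in nerfin-1[159] minus WT, 6.5% in lola[E76] minus WT and 15.5% between the mutants. These are the shares to set beside the counts of called neighbours below. Octbeta3R and Octbeta2R adjoin each other among the tested genes of chromosome arm 3R. Of the 10 tested genes around Octbeta3R 1 was lower in nerfin-1[159] than in WT, Dtg (-1.25 ± 0.32, edgeR adjusted p = 0.0133), which kept its call in 15 of 17 alternatives. Their median difference was -0.13. Dtg was likewise the 1 called neighbour between the mutants, lower in nerfin-1[159] than in lola[E76] (-1.47 ± 0.32, edgeR adjusted p = 0.00313). The gene ry, on the same arm with 25 tested genes between it and Octbeta3R, was at 0.661 ± 1.14 CPM in nerfin-1[159], against 49.3 ± 14.0 CPM in WT libraries (edgeR adjusted p = 1.04e-06). Of these 25 genes 1 was lower and 2 were higher in nerfin-1[159], with a median of -0.16.

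Around Dop1R1, also on 3R, CG12402 was lower (-1.44 ± 0.32, edgeR adjusted p = 0.00507) and su(Hw), an insulator protein, higher (1.34 ± 0.22, adjusted p = 0.000366) in nerfin-1[159] than in WT, out of 10 genes. CG12402 was also lower in nerfin-1[159] than in lola[E76] (-1.24 ± 0.32, edgeR adjusted p = 0.0107). Next to Dop2R on the X, Nep3, a neprilysin peptidase, was lower in nerfin-1[159] than in lola[E76] (-1.99 ± 0.29, edgeR adjusted p = 8.56e-05), as was Dop2R, and it was the 1 of 10 neighbours called. The receptor genes on 2R, the arm of lola itself, are 5-HT1A and 5-HT1B, which were not called in lola[E76].

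The next tested gene beside Octbeta1R on 3R moved with it in lola[E76]. CG5346 had 73, 68 and 70 counts in nerfin-1[159], 162, 174 and 211 in lola[E76] and 40, 44 and 54 in WT libraries. The lola[E76] libraries lay highest, as for Octbeta1R, but the nerfin-1[159] libraries lay above WT and not below it. The log2 difference of lola[E76] from WT was 2.03 ± 0.28 (edgeR adjusted p = 0.000104). Whether the counting assigned reads of one of these genes to the other was not tested, since the sources used here name neither strand nor counting rules. Another neighbour, Nrx-1, the synaptic adhesion protein neurexin, was lower in lola[E76] than in WT (-1.44 ± 0.20, edgeR adjusted p = 0.000157), and the other 8 were not called. Among these 8, CG7054 had a larger fitted rise than CG5346 in lola[E76] and just missed the threshold (3.24 ± 0.97, edgeR adjusted p = 0.0524). Between the mutants 3 of these 10 neighbours were called, with CG5346 (-1.13 ± 0.27, edgeR adjusted p = 0.00565) and CG7054 (-4.22 ± 1.06, adjusted p = 0.00882) lower and Nrx-1 higher (1.80 ± 0.21, adjusted p = 5.20e-06) in nerfin-1[159] than in lola[E76].

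Receptors without a call had called neighbours too. Over all tested genes 6.27% were called lower and 5.66% higher in nerfin-1[159] than in WT. In lola[E76] against WT these shares were 2.91% and 3.58%. Around 5-HT7 3 of 10 were lower in nerfin-1[159] than in WT, namely Ptx1 (edgeR adjusted p = 0.0335), which averaged 0 CPM in nerfin-1[159] and 3.44 CPM in WT libraries, Gycbeta100B (-3.15 ± 0.64, adjusted p = 0.00228) and CG11317 (-1.21 ± 0.31, adjusted p = 0.0123). In lola[E76] against WT 2 of these 10 were lower, tll (-1.52 ± 0.41, edgeR adjusted p = 0.0312) and CG12071 (-0.55 ± 0.14, adjusted p = 0.0196), and CG11317 was higher (1.019 ± 0.29, adjusted p = 0.0387). Against WT in nerfin-1[159], the Gycbeta100B call was kept in 17 of 17 alternatives, that of CG11317 in 15 of 17 and that of Ptx1 in 8 of 16. The lola[E76] calls of tll, CG12071 and CG11317 were kept in 11, 13 and 12 of 17. In nerfin-1[159] against WT, Octbeta2R had 2 lower neighbours (Octbeta3R and Dtg), Oamb had 1 lower (CG42322) and 1 higher (Syp), 5-HT1A had 1 lower (ena), 5-HT1B had 1 higher (CG18190) and Dop1R2 had 0. In lola[E76] against WT the only call around these 5 was again CG18190, which was higher.

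**Figure D5:**
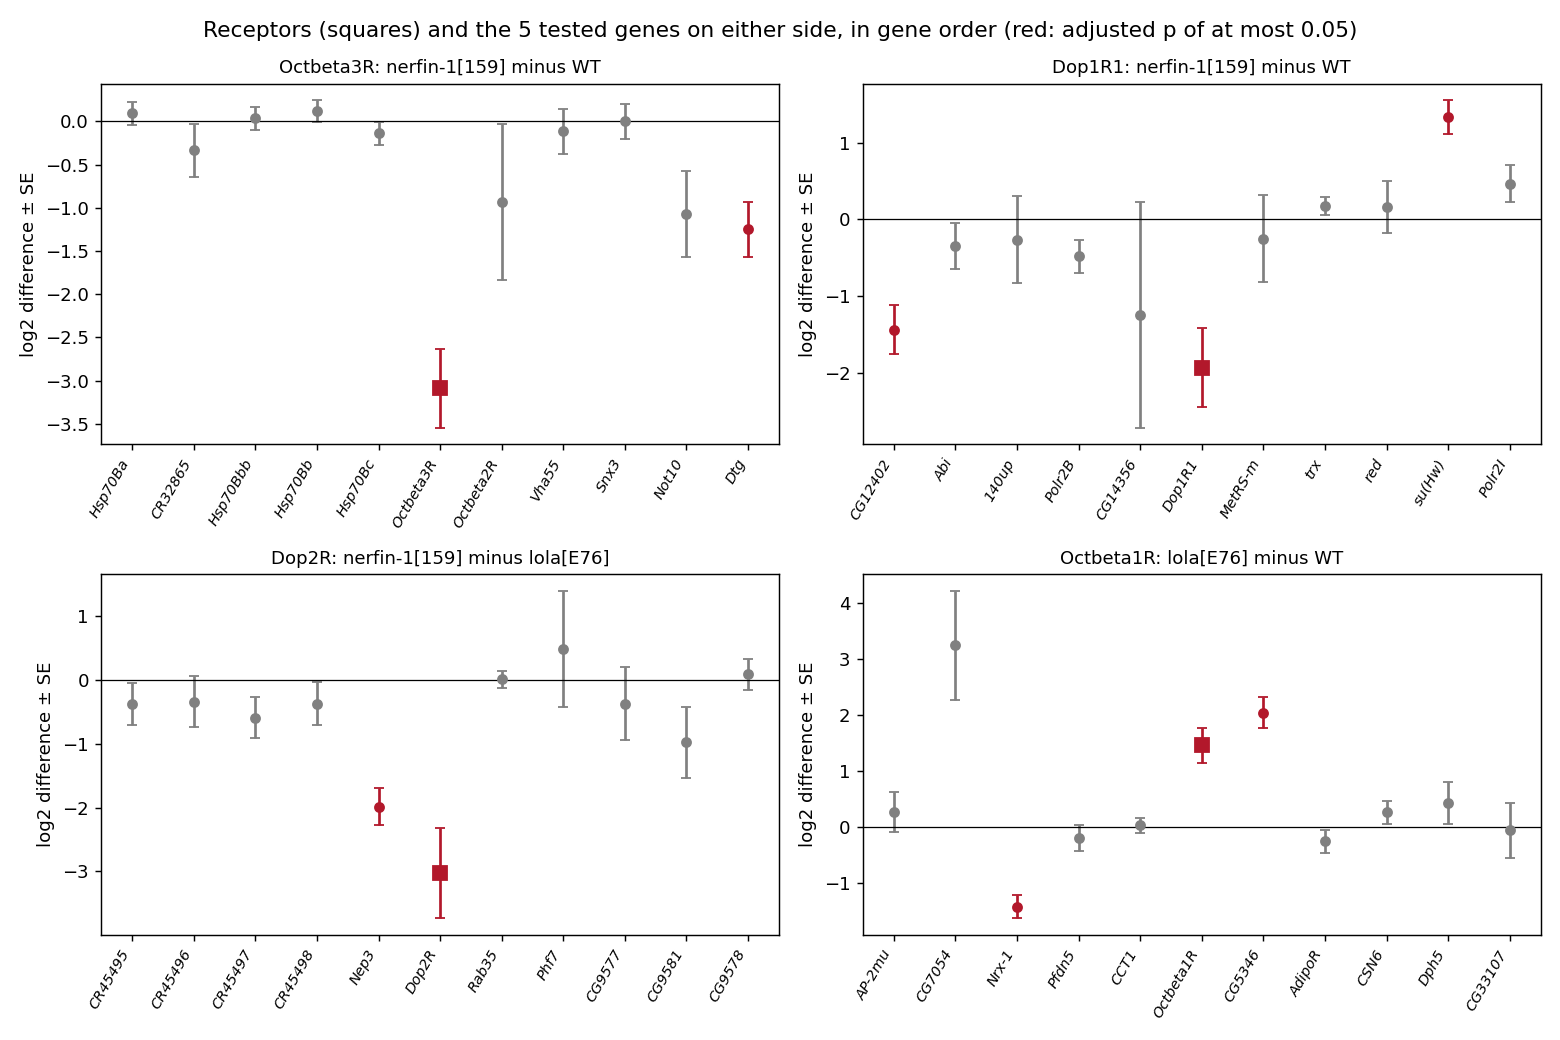
Fitted log2 difference ± SE of 4 receptors (squares) and of the 5 tested genes on either side in gene order (circles), each in 1 comparison, with red for an edgeR adjusted p of at most 0.05. Octbeta3R at -3.09 stands below its 10 neighbours, which range from -1.25 to 0.12, while CG5346 beside Octbeta1R is raised with it. CG7054, also near Octbeta1R, lies at 3.24 without a call.

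Genes annotated inside or across a receptor gene carried few counts. Of 11 such genes 10 were in the count table. The highest totals over 9 libraries were 13 for a tRNA gene in Dop2R, 11 for Ir56a in 5-HT1A and 2 for the neuropeptide gene Hug in Octbeta3R. The other 7 were at 0.

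Contact of Lola.N with the receptor genes was read from the authors' peak lists, called per replicate with 4676 and 4544 peaks. No receptor gene, taken with 1 kb on either side, held a peak in both replicates (0 of 10, against 19.3% of 17807 annotated genes). None held a peak in either replicate (32.2% of genes). All 10 belong to the longest of 5 length classes of genes, of which 35.9% held a shared peak. These peaks come from ey16F10-GAL4 cells, not from the sorted clones, and the sources used here do not name their genome build. The last peak on 3R ended at 32.08 Mb, and the last 3R gene of the reference ended at 32.07 Mb. Absence from a peak list says that no peak was called there, not that the protein does not bind.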

How the data were processed

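RNA was measured with Lexogen QuantSeq in 9 libraries of sorted optic lobe cells (15 to 70 ng of RNA), per the labels' protocols. The authors deposited raw read counts per gene; per the submitters' processing notes, Subread, featureCounts and limma were used, with no version or task named. The deposited Lola.N peak lists hold a peak score; the sources used here name neither its scale nor the genome build and annotation. Genes without a symbol (33) stayed in the fit. Gene order, overlaps and 1 kb flanks come from the RefSeq gene table.

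Samples were grouped by their genotype labels. Nothing says that the libraries came from separate crosses, so p-values measure the spread between pooled samples. Counts were filtered with filterByExpr (7451 genes), scaled by TMM and tested two-sided with edgeR 4.0.16 (quasi-likelihood, 1 mean per genotype, all 9 libraries) in R 4.3.3, with Benjamini-Hochberg adjustment over all tested genes at 0.05 and no minimum fold. Fitted differences of genes with libraries at 0 depend on the prior count. Log2 CPM used a prior count of 2. Alternatives were RLE and library-size scaling, no filter (12211 genes), a stricter filter (1 CPM in 6 libraries), DESeq2 1.42.0, limma voom 3.58.1, the 2 genotypes compared alone, a replicate block and each library left out. Peaks counted from 1 shared base. Tables and plots used Python 3.11.15, numpy 2.4.6, pandas 2.3.3, scipy 1.17.1 and matplotlib 3.10.9.

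The labels state no pairing by replicate number. Deviations of same-numbered libraries correlated at -0.06 to 0.02 over 9 pairs. With 3 libraries per genotype this cannot tell whether a batch was shared. Members and gene lists were chosen with earlier results of these data known. Named were all 10 receptors, up to 3 called genes per pathway list and comparison with the smallest adjusted p (cell type markers are given as sums and counts), the 3 genes most like each called receptor, neighbours of a called receptor within 5 tested genes that were called in the same comparison, and lola and nerfin-1; other names were chosen after their values were seen. Intervals cover the fit's error only. No sequences are shown, as none were in the sources used here.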

Additional observations from a re-analysis of the deposited data

Results flagged for a closer look

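For 4 receptors the mutants differed from each other in a direct test, so the differences of nerfin-1[159] and lola[E76] from the shared WT libraries were unequal. Octbeta3R differed by -3.24 ± 0.46 on the log2 scale (nerfin-1[159] minus lola[E76], edgeR adjusted p = 5.56e-05), with nerfin-1[159] lower in 3 of 3 libraries than any lola[E76] library. Dop2R differed by -3.03 ± 0.71 (edgeR adjusted p = 0.00541), with 3 of 3 libraries lower, although neither mutant passed the test against WT. Octbeta1R differed by -2.16 ± 0.33 (edgeR adjusted p = 0.000114), again with 3 of 3 libraries lower. Dop1R1 differed by -1.57 ± 0.51 (edgeR adjusted p = 0.0442), with overlapping libraries and a call that 8 of 17 alternatives lost.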

How the results depend on the processing

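Over 17 alternatives, the calls of Octbeta3R, Octbeta1R and Dop2R given above kept their direction and passed each time. The number of receptors called in nerfin-1[159] against WT was 1 to 4 when single libraries were left out. It was 1 without WT replicate 2, nerfin-1[159] replicate 2 or nerfin-1[159] replicate 3, and 4 without nerfin-1[159] replicate 1. It was 2 under the other settings, and 3 without a filter. In lola[E76] against WT it was 1 under every alternative. Between the mutants it was 3 to 5, both over the libraries left out and over the other settings. Uncalled differences of lola[E76] from WT changed sign in 8 cases. Over the libraries left out one at a time, Octbeta3R ranged from -0.17 to 0.44, Oamb from -0.69 to 0.36, Dop1R2 from -0.91 to 0.57, 5-HT1A from -0.31 to 0.35 and 5-HT1B from -0.21 to 0.69. The negative ends came without lola[E76] replicate 2 for Octbeta3R and without lola[E76] replicate 3 for Dop1R2, 5-HT1A and 5-HT1B, and Oamb was positive without WT replicate 1 (0.21) or lola[E76] replicate 1. Dop1R2 was also at -0.29 with limma voom. With the replicate block it was at -0.0026, and the block left 2, 1 and 3 receptors called in the comparisons nerfin-1[159] minus WT, lola[E76] minus WT and nerfin-1[159] minus lola[E76]. The block ended the Dop1R1 call between the mutants (adjusted p = 0.0950), and of the 9 libraries 1 had its closest match under the same replicate number. Oamb and 5-HT7 fell below the filter when a mutant comparison with nerfin-1[159] was fitted on 2 genotypes alone, and gave no value there. No peak fell in a receptor gene without the flanks, nor among peaks at or above the median score, against 13.6% and 10.4% of genes. Over all genes, lola[E76] minus WT gave 315 calls without WT replicate 1 and also 315 without WT replicate 2, against 484 with all libraries. Intervals were widest for 5-HT7, Oamb, Octbeta2R and Dop1R2, the receptors with the fewest counts.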
